A study of Mus musculus with 176 samples.

Results

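Among the 32 CD4 T cells that bound the P6:I-Ab tetramer (P6+), 16 held 10 or more reads of Trbv13-2, a variable segment of the T cell receptor β chain, and these 16 of the 176 sequenced cells are described here. They were divided by their reads of Foxp3, the transcription factor that defines regulatory T cells (Tregs): 9 cells with 10 or more reads are called Foxp3-high and 7 with fewer Foxp3-low. The members were thus chosen by measured reads of these 2 genes, so the levels of both genes are given only as a description, and everything that follows is a description of these cells. Female C57BL/6J mice received P6, a peptide of apolipoprotein B, by intramuscular injection, in complete Freund's adjuvant at 7 weeks of age and in incomplete adjuvant at 9 weeks, and draining lymph nodes were taken at 11 weeks. CD4 T cells were enriched, incubated with the kinase inhibitor dasatinib and stained, and single cells of an antigen-experienced gate, with CD44hi, TCRβ+ and CD4+ among its markers, were sorted into wells as P6+ (positive with both the PE and the APC tetramer) or as P6-. All 32 P6+ cells came from 1 mouse, and each well gave a full-length Smart-Seq2 library. Cells of 1 mouse are not replicates of a condition, so each side of the split is 1 sample, no test was made between the sides, and no p-value is given.

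Foxp3 drives a program of surface receptors, transcription factors and secreted products by which Tregs restrain other T cells, and many of these genes are also switched on by activation in conventional T cells. In developing T cells a β chain is assembled by joining a V, a D and a J segment, with bases trimmed and added at the joints, so that cells with the same V segment need not carry the same receptor. Naive and central memory T cells carry Ccr7, a receptor that guides them into lymph nodes, while effector cells usually lose it.

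The segments of the shared chain are shown because they are what the cells have in common. Trbv13-2 lies on chromosome 6 of GRCm38 from 41121396 to 41121832 and Trbj2-4, a joining segment, from 41543362 to 41543410, both on the plus strand. The last 60 bases of the Trbv13-2 transcript and all 49 of Trbj2-4 are printed, with capitals for the 5 bases that each contributes to the junction. The junction is the only one listed beside TRBV13-2 for P6+ cells in the study's reconstructed chains, with the 10 bases between the capitals matched to neither segment. The listed chains could not be tied to single cells here.
Trbv13-2, last bases of the transcript: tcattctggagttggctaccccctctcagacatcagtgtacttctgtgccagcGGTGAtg
Trbj2-4: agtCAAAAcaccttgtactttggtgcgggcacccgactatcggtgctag
junction listed with TRBV13-2 in P6+ rows: GGTGAcagggggcgaCAAAA

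Foxp3 reads separated the cells widely. The Foxp3-high cells held 22 reads at the lowest, 971 at the median and 4166 at the highest, and the cell above the lowest held 293. Of the Foxp3-low cells, 4 held 0 reads, 1 held 1 and 2 held 2, where 3 reads would amount to between 0.900 and 2.15 counts per 1000000 reads (cpm) in these cells. The cell with 22 reads, P6+ cell 26 (numbered by deposit order), was therefore the only one near the threshold, at 8.60 cpm. Trbv13-2 counts were nowhere near theirs: the member cells held 48 to 780 reads, and the 16 other P6+ cells 0 or 1. Scaled for depth, Trbv13-2 stood at 41.1, 146 and 241 cpm (lowest, median and highest) in Foxp3-high cells and at 70.9, 227 and 477 cpm in Foxp3-low cells, so the ranges overlapped.

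**Figure D1:**
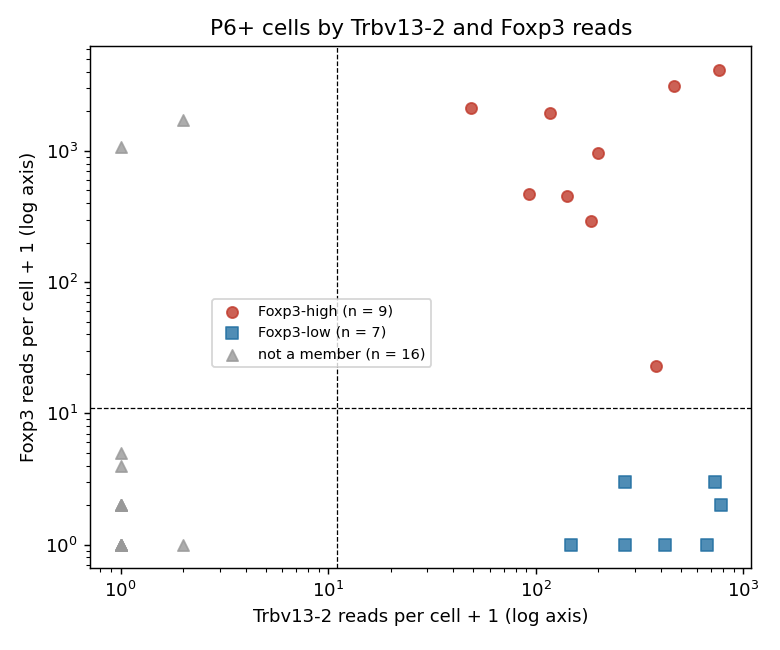
Reads of Trbv13-2 (horizontal, reads + 1, log axis) and of Foxp3 (vertical, reads + 1, log axis) in each of the 32 P6+ cells, with dashed lines at 10 reads. The 9 Foxp3-high and 7 Foxp3-low cells lie to the right of the vertical line, and 1 Foxp3-high cell, at 22 reads, lies close to the horizontal one.

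Reads of the joining segment were few but present in every cell on both sides. Trbj2-4 held 3, 6 and 27 reads (lowest, median, highest) in Foxp3-high cells and 3, 8 and 16 in Foxp3-low cells, and a median of 0 in the 14 other P6+ cells with low Foxp3, of which the highest held 15. Traj17, an α joining segment, held 0 to 10 reads in the members. Trav7d-6, an α variable segment, had 0 reads in every P6+ cell and in every P6- cell within the quality limits given below. Its count of 0 therefore does not show whether the members carry it. The study found TRAV7D-6 in the most common α chain of P6+ cells. A further β variable segment reached 10 reads in 4 Foxp3-high and 6 Foxp3-low cells. In all 10 of them it was Trbv12-2, with 11 to 321 reads. Trbv13-2 has close relatives in the same family, so reads assigned to it are uncertain to that extent.

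The sides overlapped in depth and in the number of genes, and the median Foxp3-low cell was deeper. Foxp3-high cells held 956280, 1375813 and 3150837 reads counted on genes (lowest, median, highest) and Foxp3-low cells 1395127, 1787504 and 3332191. At 10 reads, a median of 1879 genes was detected in Foxp3-high and of 1783 in Foxp3-low cells, and the highest cells, 32 and 11, both Foxp3-high, reached 3287 and 3056. With every cell thinned to the shallowest cell's 956708 deposited reads, counted before repeated gene names were averaged, the medians were 1571 and 1644 genes. Mitochondrial shares were 0.831 to 1.51% and 0.700 to 1.60%. All members shared 1 of the 8 plates and 1 sequencing lane.

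T cell identity was checked first. Cd3e and Cd3d, chains of the CD3 complex, Trac and Trbc2, the constant regions of the receptor, reached 10 reads in all 9 and all 7 cells. Cd4 itself reached 10 reads in 5 Foxp3-high and 3 Foxp3-low cells, although all had been sorted for the protein. Of 22 markers of B cells, myeloid cells, CD8 T cells, natural killer cells and red cells, 17 had no read in any member, among them Ms4a1, Cd8a, Csf1r and Itgam, and Lyz2 and H2-Aa stayed under 10 reads. The exceptions were Ighm, the constant region of immunoglobulin M, in 7 and 5 cells, Cd74, the invariant chain of MHC class II, in 5 and 5, and Cd79b, a B cell receptor chain, in 1 Foxp3-high cell. The summed level of the 22 markers ranged from 2.74 to 4625 cpm (median 1977) in Foxp3-high and from 3.93 to 7726 cpm (median 1631) in Foxp3-low cells. Their part in the results below was not tested, and Cd79a and Ms4a1, which define B cells, were at 0.

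To ask what else differed between the sides, reads were summed over the cells of a side, scaled to 1000000 reads, and compared as the log2 ratio of Foxp3-high over Foxp3-low with a pseudocount of 1 cpm, so that positive values are higher in Foxp3-high cells. Genes with 10 cpm over all members and 10 reads in at least 3 of them were compared. Of these 3669 genes, without Foxp3 and receptor segments, 1049 (28.6%) were at least 2-fold higher and 994 (27.1%) at least 2-fold lower, with a median of 0.01. A ratio of this size was thus common, and single cells set many of them. Of 53 genes named in the text with at least a 2-fold difference, 45 moved by over 1.5 times when some 1 cell was left out and 15 came inside 2-fold or turned, and of 30 named genes within 2-fold, 16 passed it. In 702 of the 1049 higher genes (66.9%) and 765 of the 994 lower genes (76.96%), 1 cell supplied over 50% of the reads of the higher side. Counting cells instead, 76 genes (2.07%) reached 10 reads in a share of Foxp3-high cells at least 50 points larger, and 8 (0.218%) in a share at least 50 points smaller. Leaving out Foxp3-high cell 3, 7 or 21 raised the share of 2.07% to 3.36% in each case, and leaving out cell 26 raised it to 3.67%. The share of 0.218% became 0.393 to 1.31% when cell 8, 9, 11, 14, 15, 17, 24, 31 or 32 was left out. At Foxp3 thresholds of 1 and 100 reads the first share was 5.70 and 5.64%, and without the filter on low genes 0.551%. A single gene had all Foxp3-high cells above all Foxp3-low cells (0.0273%), and no gene had the reverse (0%). It was Mob4, a partner of a phosphatase complex, but its lowest Foxp3-high cell stood at only 0.840 cpm and its highest Foxp3-low cell at 0.655 cpm, a gap smaller than the level of 1 read in any member cell.

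Genes of the Treg program were largely shared by both sides. Of 49 Treg-associated genes other than Foxp3, 39 were compared, of which 5 were at least 2-fold higher in Foxp3-high cells, 9 at least 2-fold lower and 25 within 2-fold, with a median log2 ratio of -0.04. Over all compared genes 28.6% were at least 2-fold higher and 27.1% at least 2-fold lower. The count of 5 became 9 without Foxp3-low cell 8 or 17 and 8 without cell 14 or 21. Each Foxp3-high cell held 10 reads of 18, 21 and 28 of the 49 genes (lowest, median, highest), and each Foxp3-low cell of 18, 21 and 27. In the 14 other P6+ cells with low Foxp3 these numbers were 3, 11 and 24. Thus every Foxp3-low member reached the lowest Foxp3-high cell, whereas the median of the other P6+ Foxp3-low cells did not. Some of those others did: cells 6, 18, 22 and 29 held 23, 23, 24 and 24 of the genes, above the median member. In these cells no β variable segment reached 10 reads, so their lack of Trbv13-2 reads does not show that they lack the segment.

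**Figure D2:**
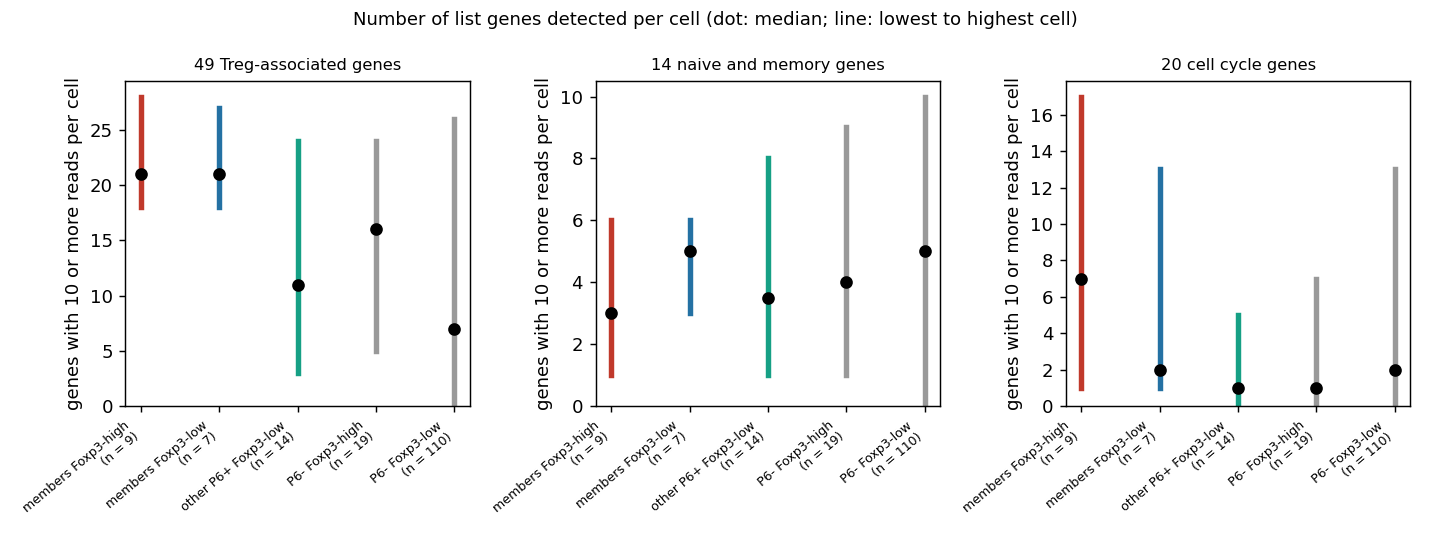
Number of genes with 10 or more reads per cell (vertical axis) for the 49 Treg-associated, 14 naive and memory and 20 cell cycle genes, in 5 sets of cells. Dots are medians and lines run from the lowest to the highest cell. Both member sets have a median of 21 Treg-associated genes, against 11 in other P6+ Foxp3-low cells, 16 in P6- Foxp3-high and 7 in P6- Foxp3-low cells.

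Among the 18 surface receptors of Tregs, 15 were compared, of which 2 were at least 2-fold higher, 2 at least 2-fold lower and 11 within 2-fold (median 0.22). Of all compared genes, 28.6% were higher and 27.1% lower. Ctla4, the inhibitory receptor that strips costimulatory ligands from antigen-presenting cells, stood at 895 cpm (95% Poisson interval 880 to 910) in Foxp3-high and 983 cpm (967 to 999) in Foxp3-low cells. Its single cells spanned 0.391, 777 and 1888 cpm (lowest, median, highest) and 8.60, 802 and 2700 cpm, so that the 2 lowest of all were Foxp3-high. Such intervals hold for the counting of reads alone, because copies made in amplification were counted as separate reads.

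The costimulatory receptors of the TNF receptor family were present on both sides. Tnfrsf4 (OX40) stood at 2204, 3567 and 8284 cpm in Foxp3-high and 856, 1772 and 12425 cpm in Foxp3-low cells (log2 ratio 0.24). Tnfrsf18 (GITR) stood at 77.1, 607 and 1277 cpm against 152, 538 and 1100 cpm (0.41). Both reached 10 reads in all 16 cells, and their ranges overlapped. Tnfrsf1b (TNF receptor 2) came close to a 2-fold difference, with summed levels of 1684 and 856 cpm (0.97) and medians of 1396 and 733 cpm. Tnfrsf9 (4-1BB) had sums of 1107 and 841 cpm (0.40) and reached 10 reads in 7 of 9 Foxp3-high and 3 of 7 Foxp3-low cells. Without Foxp3-low cell 8 the ratio of Tnfrsf9 was 1.62, past 2-fold.

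Icos, a costimulatory receptor, and Tigit, an inhibitory one, were likewise found in every cell. Icos stood at medians of 2206 and 1066 cpm with overlapping ranges (log2 ratio 0.28), and Tigit at 1022 and 823 cpm (0.10). Klrg1, a receptor of terminally differentiated effector cells and Tregs, was detected in 7 of 9 and 7 of 7 cells, at 1656 and 1849 cpm summed (-0.16). Il2ra, the high-affinity chain of the interleukin 2 receptor, again had similar sums, 323 and 314 cpm (0.04), with unequal cells: 77.8% of Foxp3-high cells (95% binomial interval 39.99 to 97.2%) and 42.9% of Foxp3-low cells (9.90 to 81.6%) reached 10 reads. The intervals of the shares overlapped, and without Foxp3-low cell 8 the ratio of Il2ra was 1.69.

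The receptor genes past 2-fold were detected in few cells on at least 1 side. Izumo1r (folate receptor 4), on chromosome 9 from 14885814 to 14903949, stood at 346 and 121.9 cpm (log2 ratio 1.50) and reached 10 reads in 7 of 9 and 2 of 7 cells. Without Foxp3-low cell 9 its ratio was 2.57. In the 14 other P6+ Foxp3-low cells, however, 11 reached it. Il1rl1, the interleukin 33 receptor, was at 299 and 60.9 cpm (2.28), with 79.4% of the Foxp3-high reads in cell 26. Without that cell the ratio was 0.28, and without Foxp3-low cell 31 it was 8.02. At a Foxp3 threshold of 100 reads, which moved cell 26 to the other side, the ratio of Il1rl1 was -1.82. On the other side, Itgae, the αE integrin that binds E-cadherin, stood at 339 and 1451 cpm (-2.10) in 3 and 4 cells, and 90.6% of its Foxp3-high reads lay in cell 7, without which the ratio was -5.24, while without Foxp3-low cell 24 it was -1.37. Lrrc32, which docks latent TGF-β on the surface, was at 259 and 558 cpm (-1.11) in 4 cells of each side. Its ratio was -0.03 without Foxp3-low cell 24 and -2.58 without Foxp3-high cell 2.

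**Figure D3:**
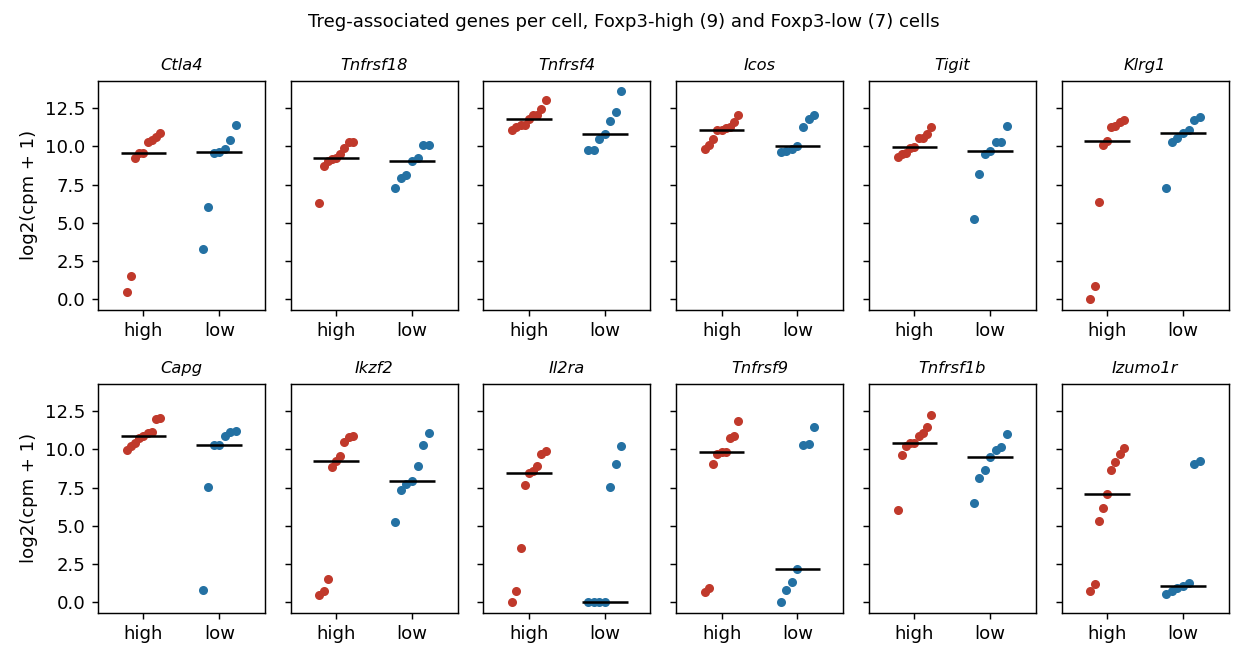
Level of 12 Treg-associated genes in each cell, as log2(cpm + 1), for the 9 Foxp3-high and 7 Foxp3-low cells; bars are medians over cells. The sides overlap for every gene, and Il2ra, Tnfrsf9 and Izumo1r are near 0 in 4, 4 and 5 Foxp3-low cells. They are also near 0 in some Foxp3-high cells: Il2ra and Izumo1r in cells 7 and 21, and Tnfrsf9 in cells 3 and 7.

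Of the 13 Treg transcription factors, 10 were compared, of which 2 were at least 2-fold higher and 2 at least 2-fold lower (median -0.16). The shares of all compared genes were 28.6 and 27.1%. Ikzf2 (Helios), often used to mark thymic Tregs, reached 10 reads in 6 of 9 Foxp3-high and in 7 of 7 Foxp3-low cells, with summed levels of 647 and 548 cpm (log2 ratio 0.24). Its medians were 595 and 244 cpm, while the lowest cells stood at 0.391 cpm in Foxp3-high and 37.6 cpm in Foxp3-low, and the ranges overlapped. Satb1, a chromatin organizer, was in 7 and 7 cells at 1272 and 691 cpm (0.88), and without Foxp3-low cell 15 its ratio was 2.16. Ikzf4 (Eos) was at 453 and 826 cpm (-0.87) in 3 and 4 cells, and without cell 26 its ratio was -2.10. Batf, a factor of effector Tregs, was at 1006 and 222 cpm (2.17), but 60.3% of its reads came from cell 26, without which the ratio was 1.10, and with a Foxp3 threshold of 100 reads, which put that cell on the Foxp3-low side, it was -0.61.

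Gata3, the factor of type 2 helper cells that Tregs of tissues also carry, was detected in more Foxp3-low than Foxp3-high cells. It lies on chromosome 2 from 9857078 to 9890034. Foxp3-low cells held 22.3, 680 and 1500 cpm and Foxp3-high cells 0, 3.36 and 412 cpm, summing to 742 cpm (728 to 756) and 117.4 cpm (112.1 to 122.98), a log2 ratio of -2.65, or -3.46 without Foxp3-high cell 7. All 7 Foxp3-low cells reached 10 reads (95% interval of the share 59.04 to 100%), against 4 of 9 (44.4%, 13.7 to 78.8%) Foxp3-high cells, and this made it 1 of the 8 genes detected in fewer Foxp3-high cells. The levels of the sides still overlapped. Of the 14 other P6+ cells with low Foxp3, 6 reached 10 reads. In P6- cells Gata3 was at 249 cpm in Foxp3-high and 186 cpm in Foxp3-low cells (0.42).

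Of the 18 suppressive and effector products, 14 were compared, with 1 at least 2-fold higher and 5 at least 2-fold lower (median -0.68). Over all compared genes 28.6% were higher and 27.1% lower. Capg, an actin-capping protein of effector Tregs, stood at 988, 1913 and 4300 cpm in Foxp3-high and 0.717, 1260 and 2328 cpm in Foxp3-low cells (log2 ratio 0.91), and was found in 9 and 6 cells. Gzmb (granzyme B) was in 5 and 5 cells at 880 and 1172 cpm (-0.41), and Lag3, an inhibitory receptor, in 4 and 4 at 428 and 666 cpm (-0.64). The ratio of Lag3 was -1.59 without Foxp3-high cell 20 and 0.06 without Foxp3-low cell 8. Tgfb1, the cytokine TGF-β1, was in 6 and 2 cells at 182 and 91.4 cpm (0.98). With 1 cell left out its ratio ranged from -0.30 (without Foxp3-high cell 7) to 1.92 (without Foxp3-low cell 17). Il10, the other classical product, was in 2 and 1 cells at 45.004 and 74.999 cpm (-0.72), with 99.8% of its Foxp3-low reads in cell 9, without which the ratio was 5.32. The lower genes included Socs2, a damper of cytokine signals, at 14.8 and 304 cpm (-4.27) in 1 and 4 cells, or -7.81 without cell 32. Penk, the precursor of enkephalin peptides, was at 831 and 2724 cpm (-1.71) in 2 and 3 cells. Its ratio was -0.02 without Foxp3-low cell 8 and -4.36 without Foxp3-high cell 20.

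The list of naive, memory and recirculation genes leaned to the Foxp3-low side. Of its 14 genes 8 were compared, of which 0 were at least 2-fold higher and 5 at least 2-fold lower (median -1.24), where 27.1% of all genes were lower. The 5 became 3 at Foxp3 thresholds of 1 or 100 reads, in thinned cells, and without cells 11 and 32. Ccr7, on chromosome 11 from 99144196 to 99155077, stood at 1.20, 1304 and 3878 cpm in Foxp3-low and at 0, 2.22 and 960 cpm in Foxp3-high cells. Summed, these were 1639 cpm (1618 to 1660) and 164 cpm (158 to 171), a log2 ratio of -3.31, between -4.12 and -2.71 with any 1 cell left out. Of the 7 Foxp3-low cells 5 reached 10 reads (71.4%, 29.04 to 96.3%), and of the 9 Foxp3-high cells 3 (33.3%, 7.49 to 70.1%), so the levels overlapped.

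The remaining members of that list did not move as a block. S1pr1, the receptor by which T cells leave lymph nodes, was at 38.8 and 191 cpm (-2.27, or -2.88 without Foxp3-high cell 3) in 3 and 3 cells. Klf2, which maintains S1pr1, and Lef1, a factor of naive cells, were at 36.4 and 81.4 cpm (-1.14) and at 4.47 and 19.2 cpm (-1.88), each in at most 2 cells a side. Their ratios turned to 0.017 for Klf2 without Foxp3-low cell 8 and to 1.23 for Lef1 without Foxp3-low cell 24. Il7r, the survival receptor of memory cells, was at 275 and 150 cpm (0.87, or 1.61 without Foxp3-low cell 8) in 6 and 5 cells, and Ets1 in 8 and 7 (-0.31). Tcf7, the factor TCF1 of naive and memory cells, reached 10 reads in 0 of 9 and 0 of 7 members, with exact 95% upper bounds of 33.6% and 40.96% on these shares, while 7 of the 14 other P6+ Foxp3-low cells and 44 of the 110 P6- Foxp3-low cells reached it.

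Genes that follow receptor engagement were mixed. Of 22 genes 11 were compared, with 2 at least 2-fold higher and 4 at least 2-fold lower (median -0.66). Among all compared genes these shares were 28.6 and 27.1%. All cells had been kept in dasatinib, which blocks receptor-proximal kinases, before the tetramer was added. Nfatc1, a transcription factor activated by calcium signals, stood at 0, 902 and 1746 cpm in Foxp3-low and 0.441, 11.1 and 474 cpm in Foxp3-high cells, with sums of 681 and 67.1 cpm (-3.32, or -4.22 without Foxp3-high cell 28). Tnfaip3 (A20), a brake on NF-κB, was at 30.2 and 460 cpm (-3.89, or -5.38 without Foxp3-high cell 11) in 2 and 3 cells, and Cd69, an early activation receptor, at 116.4 and 680 cpm (-2.54) in 4 and 2 cells, 96.9% of the latter reads in cell 24, without which the ratio of Cd69 was 2.18. Dusp1, a phosphatase of MAP kinases, ran the other way, at 0.441, 181 and 720 cpm in Foxp3-high cells and at most 3.36 cpm in any Foxp3-low cell (6.34, or 5.69 without Foxp3-high cell 3). It reached 10 reads in 5 of 9 and 0 of 7 cells, but also in 7 of the 14 other P6+ Foxp3-low cells, and including every P6+ cell with a Trbv13-2 read turned its ratio to -0.84.

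Cell cycle genes leaned to the Foxp3-high side. Of 20 genes 16 were compared, of which 9 were at least 2-fold higher and 0 at least 2-fold lower (median 1.07), where 28.6% of all genes were higher. Some of them, Mki67 included, passed the read filter only through Foxp3-high cells and could only come out higher. The count is therefore a description only. The number of these genes was uneven across cells. Foxp3-high cells held 10 reads of 1, 7 and 17 of the 20 genes (lowest, median, highest), with 17 in cells 11 and 32, which also had the most genes of all, and 15 in cell 28. Foxp3-low cells held 1, 2 and 13, with 13 in cell 9 and at most 4 in the others. Without cells 11 and 32, a choice made after the data were seen, 10 genes were compared, 5 of them at least 2-fold higher and 1 lower (median 0.77).

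Mki67, which marks proliferating cells, reached 10 reads in 3 of 9 Foxp3-high cells, with 203 cpm summed, and had 0 reads in all 7 Foxp3-low cells, so that it was at least 1002-fold higher when set against a floor of 3 reads over the side. Of its reads 71.1% lay in 1 cell. Mcm6, a subunit of the replicative helicase, was at 710 and 176 cpm (log2 ratio 2.004) in 5 and 2 cells, and Pcna, the replication clamp, at 461 and 159 cpm (1.53) in 5 and 2. The ratio of Mcm6 was 3.50 without Foxp3-low cell 8 and 1.35 without Foxp3-high cell 26, and that of Pcna was 0.72 without Foxp3-high cell 7 and 3.47 without Foxp3-low cell 9. Tubb5, a β-tubulin, was in 8 and 6 cells at 2768 and 1044 cpm (1.41), and without Foxp3-high cell 28 the ratio was 0.77. Top2a, the topoisomerase of dividing cells, was at 338 and 152 cpm (1.15), and 99.6% of the Foxp3-low reads lay in cell 9. Leaving out cell 9 raised the Top2a ratio to 7.65 and leaving out cell 28 lowered it to 0.54, and with Foxp3-high set at 1 Foxp3 read it was -0.22.

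Helper cytokines and follicular helper genes were sparse on both sides, whereas Th1 genes were not. None of 17 helper cytokine genes, Cd40lg included, had enough reads to be compared. Ifng, Il4, Il21 and Tnf had 0 reads in all 16 cells, which with 3 counts over a side allows up to 0.195 cpm in Foxp3-high and 0.203 cpm in Foxp3-low cells, and Il17a (15.8 cpm) and Lta (70.9 cpm) each reached 10 reads in 1 Foxp3-high cell. Tnfsf8 (CD30 ligand) reached 10 reads in 2 Foxp3-low cells, at 4.80 and 5.34 cpm, within its range of 1.27 to 7.32 cpm in Foxp3-high cells. Of the Th1 list 10 genes were compared, with 3 higher and 3 lower (median -0.10), beside 28.6 and 27.1% of all compared genes. A median of 4 was detected per cell on each side. Ifngr1, a chain of the interferon γ receptor, was in 9 and 6 cells at 1167 and 1536 cpm (-0.40). Tbx21 (T-bet), its defining factor, was at 22.2 and 406 cpm (-4.13) in only 1 and 2 cells, while Cxcr3, a chemokine receptor that T-bet induces, was at 370 and 110 cpm (1.74) in 5 and 3. The ratio of Tbx21 was -2.67 without Foxp3-low cell 9 and -8.48 without Foxp3-high cell 32, and that of Cxcr3 was 2.45 and 2.64 without Foxp3-low cell 14 or 31. Follicular helper genes were scarce: Foxp3-high cells held 1 to 3 of 16 and Foxp3-low cells 0 or 1, against a median of 4.5 in other P6+ Foxp3-low cells. Of these only Slamf6, at 86.2 and 1.01 cpm (5.44) in 3 and 0 cells, and Il6st (0.52) were compared. The ratio of Il6st was -2.39 without Foxp3-high cell 21 and 7.69 without Foxp3-low cell 24, and that of Slamf6 was 4.61 without Foxp3-high cell 26.

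Genes of effector migration and the cytoskeleton were abundant in both. Of 21 genes 18 were compared, with 2 at least 2-fold higher, 2 lower and 14 within 2-fold (median -0.02). Over all compared genes 28.6% were higher and 27.1% lower. A median of 14 genes of the list was detected per cell on each side, against 6.5 in other P6+ Foxp3-low cells. Lgals1 (galectin-1) was in all 16 cells at 1492 and 1842 cpm (-0.30), and Itgb7, the β7 integrin, in all 16 at 2545 and 2662 cpm (-0.07). S100a11 was at 526 and 225 cpm (1.22, or 0.70 without Foxp3-high cell 21) and Itgb1, the β1 integrin, at 77.9 and 1.56 cpm (4.95), while Cd44, whose protein the gate required, was at 106.2 and 518 cpm (-2.28) in 4 and 2 cells. The ratio of Cd44 was -1.47 without Foxp3-low cell 8 and -3.35 without Foxp3-high cell 7, and that of Itgb1 was 4.22 without Foxp3-high cell 21. Receptor complex genes were also even, with 14 compared, 3 higher and 0 lower (median 0.15), beside the same 28.6 and 27.1% of all genes. The 3 were Cd247, Cd28 and Cd6. Without Foxp3-high cell 21 the ratio of Cd28 fell from 1.25 to 0.07, and without cell 26 that of Cd247 fell from 1.36 to 0.95.

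At the ends of the ratio, genes were named by a rule: 10 reads in at least 60% of the cells of the higher side, no cell with over 50% of that side's reads, then the 10 highest and 10 lowest ratios with each cell weighted equally. The rule was met by 374 higher and 228 lower genes. The 10 highest included Lta4h, Appbp2, Map2k3, Gbp7, Aurkaip1, Phf12, Ppig, Rraga and Ewsr1, and 8 of them had no Foxp3-low cell at 10 reads. With every P6+ cell that held a Trbv13-2 read included, the ratio of Rraga turned to -0.29. Lta4h, the hydrolase that makes leukotriene B4, stood at 0, 271 and 1378 cpm in Foxp3-high cells, with 9496 reads against 3, a ratio of 3035 with a 95% counting interval of 1038 to 14721. Map2k3, a kinase above p38, was at 0.317, 598 and 2302 cpm and at most 3.27 cpm in Foxp3-low cells. Gbp7, an interferon-induced GTPase on chromosome 3 from 142530342 to 142550149, was at 0, 236 and 1071 cpm and at most 1.02 cpm in Foxp3-low cells. For each of the 10 genes, 1 to 3 Foxp3-high cells lay at or below the highest Foxp3-low cell, so the sides overlapped.

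The 10 lowest were Faim, Txnl1, Ccr7, Ncoa3, Smarce1, Nfatc1, Vmp1, Gata3, Tap1 and Tcf25. All were detected in at least 2 Foxp3-high cells. Tap1, the transporter that loads peptides onto MHC class I, was at 0.300, 1947 and 4597 cpm in Foxp3-low and 0.635, 350 and 1081 cpm in Foxp3-high cells (log2 ratio -2.55, or -3.37 without Foxp3-high cell 7). Ncoa3, a coactivator of nuclear receptors, was in all 7 Foxp3-low and 7 of 9 Foxp3-high cells, at 555 and 112.7 cpm (-2.29 for Foxp3-high over Foxp3-low). Vmp1, of autophagosome formation, was at 651 and 110 cpm on those sides (-2.55), in 6 and 4 cells, with a ratio of -3.95 without Foxp3-high cell 26. Faim, an inhibitor of Fas-induced death, was at 571 and 46.04 cpm (-3.60), in 5 and 3 cells, with a ratio of -5.15 without Foxp3-high cell 28.

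**Figure D4:**
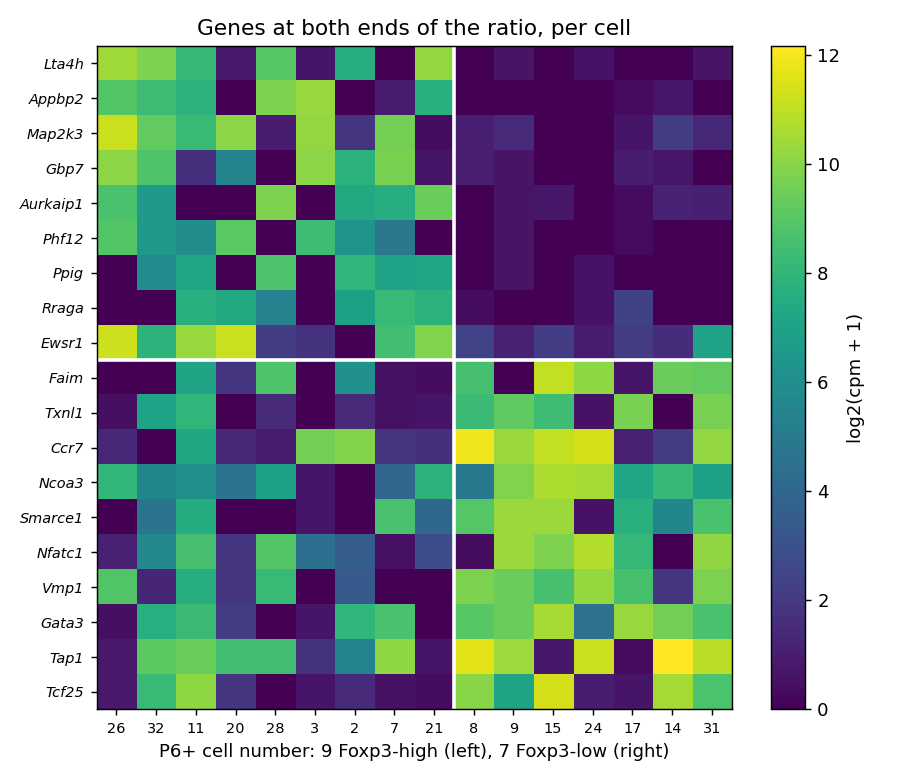
Level, as log2(cpm + 1) in colour, of 9 of the 10 highest and all 10 lowest genes chosen by the rule (rows) in each member cell (columns, 9 Foxp3-high left of the white line and 7 Foxp3-low right). Even for these genes, chosen for their ratios, single Foxp3-high cells resemble Foxp3-low cells.

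The same split was made in the P6- cells that passed limits of 500000 reads, 2000 genes and 10% mitochondrial reads, 19 Foxp3-high and 110 Foxp3-low, of which 11 shared the plate of the members. Per the study's methods, P6- cells were sorted from the part of the sample volume not used for P6+ cells. The study also set a limit on mapping rate, which the counts do not hold and which was not applied, so cells that the study discarded are among them. Foxp3-high and Foxp3-low P6- cells had median mitochondrial shares of 2.11 and 3.93% and medians of 1399 and 1205.5 genes at 10 reads, against 1.16 and 1.25% mitochondrial reads in the members, and the part of these differences in the results was not tested. Of 6968 genes compared there, 1401 (20.1%) were at least 2-fold higher and 2507 (36%) at least 2-fold lower (median -0.29). Of 42 Treg-associated genes compared, 21 were higher and 7 lower (median 0.99). In the 26 P6- cells that held Trbv13-2, 4 of them Foxp3-high, 16 of 32 were higher and 6 lower (median 1.03), where 24.2% and 41.2% of 3478 genes were. The difference between these comparisons and that within the members was not tested.

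Of 37 Treg-associated genes compared in both, 20 were at least 2-fold higher in Foxp3-high P6- cells. In the members 15 of these 20 were within 2-fold, 4 were at least 2-fold lower, and 1, Il1rl1, was higher. Over all 3420 genes compared in both, 631 were at least 2-fold higher in Foxp3-high P6- cells, of which 41.2% were within 2-fold in the members, 29.3% lower and 29.5% higher. Ikzf2 had a log2 ratio of 3.64 in P6- and 0.24 in the members, Klrg1 of 2.53 and -0.16, Ctla4 of 1.72 and -0.14, and Il2ra of 1.74 and 0.04. The summed levels behind these ratios were as follows. Ctla4 stood at 1236 cpm in Foxp3-high P6- cells and 373 cpm in Foxp3-low ones, against 895 and 983 cpm in the members, so the Foxp3-low members lay above the Foxp3-low P6- cells. Klrg1 was at 364 and 62.3 cpm in P6- cells, below the members on both sides. The 4 genes higher in the members alone were Batf, Cbfb, Ctsw and Izumo1r. The ratio of Ctsw, 2.0004, was 0.57 without cell 26, 8.48 without Foxp3-low cell 9 and -1.15 at a Foxp3 threshold of 100 reads. That of Cbfb, 4.04, was 2.09 without Foxp3-high cell 32.

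**Figure D5:**
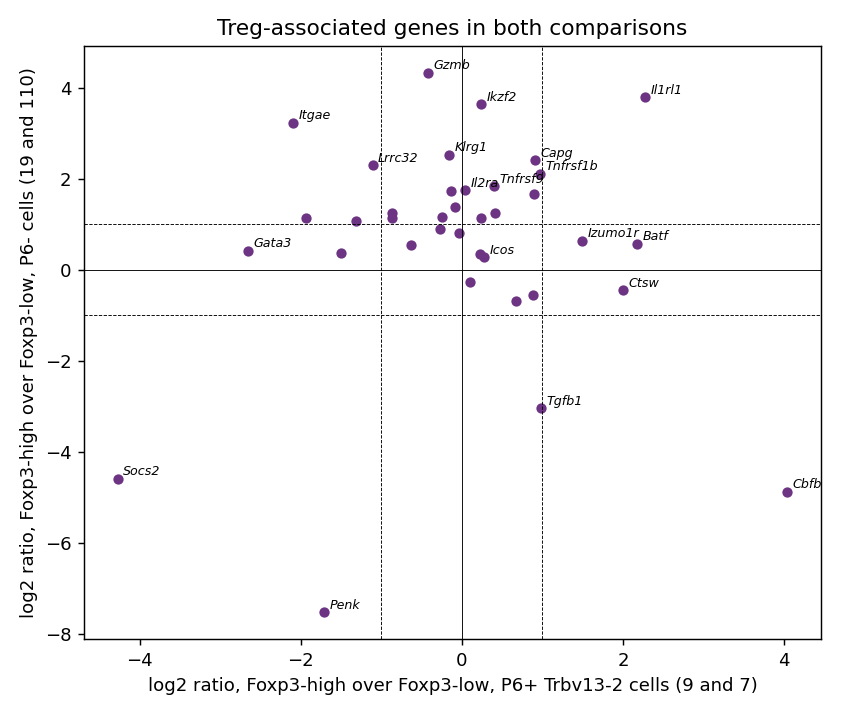
Log2 ratio of Foxp3-high over Foxp3-low for 37 Treg-associated genes in the member cells (horizontal, 9 and 7 cells) and in P6- cells (vertical, 19 and 110 cells), with dashed lines at 2-fold. Of the 20 genes above the upper line, 15 lie between the vertical dashed lines.

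The genes named by the rule were also looked up in P6- cells. Of the 10 highest rule genes, 1 (Gbp7) was at least 2-fold higher and 2 were at least 2-fold lower in Foxp3-high P6- cells (median 0.16), and of the 10 lowest, 1 (Nfatc1) was lower and 1 (Vmp1) higher (median 0.29), where 20.1% of all genes were higher and 36% lower there. In P6- cells with Trbv13-2, 8 of the 10 highest were compared, 1 higher and 3 lower (median -0.32), and of the 10 lowest 5 were lower and 1 higher (median -1.18), where 24.2% and 41.2% of all genes were. Over all passing P6- cells, Ccr7 stood at 2866 and 2569 cpm (0.16). In the same cells the naive and memory list had 7 of 14 genes lower and 1 higher (median -1.24), with Tcf7 at 34.8 and 424 cpm (-3.57). Of the cell cycle genes, also over all P6- cells, 2 of 10 were higher and 5 lower (median -1.14), beside the same 20.1 and 36% over all genes.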

How the data were processed

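Single-cell Smart-Seq2 libraries of 32 P6+ and 144 P6- cells were analysed, each sample being 1 cell. Per the submitters' processing notes and the study's methods, the authors mapped paired reads to GRCm38 with STAR 2.6.0a (FastQC 0.11.7 and SAMtools 0.1.19 were also named) and deposited the read counts of each gene as they were, neither normalized nor filtered. A strand setting of the counting was not given in the sources used here. Without unique molecular identifiers, amplified reads are not independent molecules. The table of tetramer signs carried no measurement.

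The table held 53647 rows and 53546 names, and counts of the 81 repeated names were averaged, as the study did. No column was left without a sample (0). Depth was 956280 to 3332191 reads in member cells. Counts were summed per side and scaled per 1000000. Cells of 1 mouse are not replicates, so no count model was fitted and edgeR and DESeq2 served for scaling alternatives only. Detection was set at 10 reads, because a few reads may stray from neighbouring wells. Poisson, binomial and ratio intervals are exact at 95%, and a count of 0 was read as at most 3. No doublet caller was run, since each well received 1 sorted cell. Positions and sequences came from GENCODE annotation of GRCm38, and the junction from the study's chain list. Trbc1 and Trbc2, and members of the Trbv13 family, are near-identical, so their counts are uncertain.

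The members, the gene lists and the rule for named genes were chosen with earlier results of these data known. Besides the list genes, the rule named the 10 highest and 10 lowest ratios of mean cpm with equal cell weights among compared genes that had 10 reads in 60% of the cells of the higher side and no cell with over 50% of its reads, without receptor segments, Foxp3 and predicted genes. Mob4 was named after its values were seen, as were genes given beside a count. Alternatives changed scaling, pooling, pseudocount, filter, both thresholds, depth, repeated names and the cells summed, and 1 of them, without the 2 cells of most genes, was chosen after seeing the data. Some genes of the lists and of the rule are not reported here by name. The calculation of the ratios was checked on simulated counts in which cells of a side differed only in depth and counting noise. That check does not cover the spread between real cells. Python 3.11.15, numpy 2.4.6, pandas 2.3.3, scipy 1.17.1, R 4.3.3, edgeR 4.0.16 and DESeq2 1.42.0 were used.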

Additional observations from a re-analysis of the deposited data

Results flagged for a closer look

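A cell was looked at again where its gap to the next cell took up an unusually large part of its side's range by Dixon's criterion, which chance meets in about 1 in 20 groups. Several measures of the cells and every gene list were screened on each side, so some cells would be flagged by chance. Among Foxp3-low cells, cell 14 held 477 cpm of Trbv13-2, a gene by which the members were chosen, where the next held 237 cpm. Cell 9 of the same side held 10 reads of 13 of the 20 cell cycle genes, where the next held 4. The highest Foxp3-low cell held 9 of the 22 receptor-signal genes, where the next held 6. Among Foxp3-high cells, 1 cell held 4 of the 12 Th17 genes, where the next held 2.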

How the results depend on the processing

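No paired analysis was possible because each cell is 1 sample, replicate numbers only follow the order of deposit, and no test was made. The counts of 1049 higher and 994 lower genes became 3418 and 2575 with no filter on low genes and stayed within 1.5 times under every other alternative. TMM scaling gave 1011 and 1046, and DESeq2 size factors 1045 and 1000. With 1 cell left out at a time they ranged from 873 to 1113 and from 910 to 999. The share of genes detected in more Foxp3-high cells, 2.07%, became 0.551% without the filter, 5.70% at a Foxp3 threshold of 1 read and 5.64% at 100 reads, and 1.60 to 3.67% with 1 cell left out. The share detected in fewer, 0.218%, became 0.0976% without the filter, 0.818 and 0.572% at those Foxp3 thresholds, 0.454% at 100 Trbv13-2 reads, 1.04% without the 2 cells of most genes (chosen after seeing the data), and 0.197 to 1.31% with 1 cell left out. The 5 Treg-associated genes at least 2-fold higher became 8 with equal cell weights, at 100 Trbv13-2 reads or in thinned cells, 9 at a Foxp3 threshold of 1 read or without those 2 cells, and 5 to 9 with 1 cell left out. The 5 naive and memory genes at least 2-fold lower became 3 at either Foxp3 threshold, in thinned cells or without those 2 cells, and 4 or 5 with 1 cell left out. The causes were not tested, except that fewer or more genes and cells entered by construction.

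Of 83 named genes under 29 alternatives (2407 values), 2359 moved by less than the spread between cells and 38 by more with no reversal of a 2-fold difference, and 10 reversed one. Genes within 2-fold changed sign in 78 values over 23 genes, 43 of them with 1 cell left out. With every P6+ cell holding 1 Trbv13-2 read, Rraga had a log2 ratio of -0.29 and Dusp1 of -0.84. At a Foxp3 threshold of 1 read Top2a had -0.22, and at 100 reads Batf had -0.61, Il1rl1 -1.82 and Ctsw -1.15. With 1 cell left out, Lef1 ranged from -4.14 to 1.23 and Cd69 from -2.93 to 2.18 (the latter values without cell 24), Klf2 from -2.02 to 0.017 (without cell 8) and Casp8 from -2.68 to 4.01 (without cell 9). Of the 53 named genes at least 2-fold apart, 43 kept their direction under all 29. With 7 to 9 cells a side, shares of cells carry wide intervals, and a gene without reads may have been missed at this depth.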

Other observations

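Some gene groups were not described above. Of 18 interferon response genes 9 were compared, with 2 at least 2-fold higher in Foxp3-high cells, 2 at least 2-fold lower and a median log2 ratio of 0.63. Over all compared genes 28.6% were higher and 27.1% lower. The higher genes of the list were Gbp7 and Gbp2, a related GTPase, at 418 and 105.2 cpm (1.98), in 5 and 4 cells, or 3.64 without Foxp3-low cell 8. The lower genes were Irf7, an interferon regulatory factor, at 0.454 and 321 cpm (-7.79, or -6.34 without Foxp3-low cell 9) in 0 and 3 cells, and Bst2 (tetherin) at 104.99 and 438 cpm (-2.05, or -2.81 without Foxp3-high cell 21) in 4 and 5 cells.

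Of 14 survival and death genes 7 were compared, with 0 higher and 1 lower (median -0.63), beside 28.6 and 27.1% of all compared genes. The lower gene was Casp8, the initiator caspase of death receptors, at 16.3 and 57.2 cpm (-1.75), with 99.9% of its Foxp3-low reads in cell 9, without which the ratio was 4.01. Bcl2, the classical survival factor, had 0 reads in all members. Of the Th17 list 2 genes were compared, Rora, a factor of that lineage and of tissue Tregs, at 481 and 347 cpm (0.47, or 1.48 without Foxp3-low cell 8 and -0.51 without Foxp3-high cell 7) in 6 and 3 cells, and Tmem176b at 32.6 and 130 cpm (-1.96) in 1 and 2 cells. The ratio of Tmem176b was -0.30 without Foxp3-low cell 8 and -6.76 without Foxp3-high cell 2.

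The 2 P6+ cells with Foxp3 but without Trbv13-2 held 1065 and 1708 Foxp3 reads and, in that order, 26 and 16 of the 49 Treg-associated genes, within or near the range of the Foxp3-high members, and 13 and 8 of the interferon response genes, above the highest member, which held 7.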
